A study of Mus musculus with 18 samples.

Results

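Reversal learning in *Ccny* KO mice was compared with original learning in *Ccny* KO mice over all 15329 genes of the hippocampal expression table. The comparison rested on 6 of the 18 libraries, 3 from KO mice after original and reversal learning (KO_RL) and 3 from KO mice after original learning (KO_OL), each library being from 1 mouse. Untrained KO mice (KO_Basal) and wild-type mice of the same 3 states (WT_Basal, WT_OL and WT_RL), with 3 mice each, were used as references. All mice were C57BL/6J and 8 to 10 weeks old, KO mice are labelled as *Ccny* knockout, and how the allele was made is not given in the sources used here. Training was done in the Morris water maze, in which a mouse learns the place of a hidden platform (original learning) and then learns that the platform has been moved to the opposite quadrant (reversal learning). KO_RL mice had therefore gone through everything that KO_OL mice had, plus the reversal days, so that the new learning, the extra swimming, the extra days and the different day of sampling cannot be told apart in this comparison.

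Cyclin Y, the product of *Ccny*, is a membrane-associated cyclin that works with kinases of the CDK14 and CDK16 family and also acts at excitatory synapses. Changes of RNA in the hippocampus after a task in water can come from several programs that are well described as background. Corticosterone, released during stress, acts through the glucocorticoid receptor to induce genes such as *Fkbp5*, *Zbtb16* and *Hif3a*. Neuronal activity induces immediate early genes such as *Fos* and *Arc*. Low sterol in the endoplasmic reticulum releases SREBP2, which induces the enzymes of cholesterol synthesis, and misfolded protein releases HSF1, which induces the heat shock chaperones.

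The 6 KO libraries held 32578292 to 35976583 reads on the genes of the table, and 1 read was worth 0.0280 to 0.0309 CPM, counts scaled to a common library total. *Ccny* itself was still read in KO mice, at 75.0, 74.0 and 76.0 CPM in KO_OL and 76.2, 84.3 and 78.6 CPM in KO_RL, below every WT library, in which the lowest value was 107 CPM. Its log2 difference between KO_RL and KO_OL was 0.09 ± 0.11 (SE, limma adjusted p = 1). Which part of the transcript these reads come from cannot be seen in values per gene. KO_RL replicate 2 stood apart from the other KO_RL libraries: its dependence of expression on GC content was 0.0017 log2 units per 10% of GC, against at least 0.0829 in replicates 1 and 3, and its summed level of nuclear noncoding RNAs was the highest of the 6 libraries. Results that move with this library are given below with and without it. Among the WT references, WT_OL replicate 2 stood apart, with a GC dependence of 0.206 against 0.0228 and 0.0249 in the other WT_OL libraries. WT_RL replicate 2 was shifted the same way, at 0.130 against 0.0295 and -0.0138 in the other WT_RL libraries. Over genes, these 2 libraries deviated together (r = 0.68). For several lists, counts or medians in WT mice are also given without WT_OL replicate 2. WT_RL replicate 2 was kept in those values. Without WT_OL replicate 2, 4.12% of all genes were higher and 3.20% lower in WT_RL than in WT_OL, and 5.49% differed between genotypes. Untrained KO libraries were shifted as a group, with a GC dependence of -0.152, -0.117 and -0.124, against 0.0473 to 0.117 in KO_OL. Where untrained mice are set beside trained ones below, this shift and training cannot be told apart. Markers of the hippocampus were present in each of the 6 KO_OL and KO_RL libraries. Summed dentate granule markers were 697 to 857 CPM in KO_OL and 721 to 980 CPM in KO_RL. Summed CA1 pyramidal markers were 799 to 1047 and 762 to 1020 CPM. None of these genes was at 0 in any of the 6 libraries. Choroid plexus markers, from tissue that borders the hippocampus, varied widely within both groups, with a summed level of 3802 to 7244 CPM in KO_OL and 2212 to 8013 CPM in KO_RL, and 0 of 20 of them passed an unadjusted p under 0.05. In untrained KO mice that sum was 274 to 1198 CPM, lower than in either trained group.

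At an adjusted p under 0.05 (limma, Benjamini-Hochberg over all genes), 3 genes were higher in KO_RL than in KO_OL and 0 were lower, which is 0.0196% of the genes tested. By the criteria of the study, more than 1.5-fold with an unadjusted p under 0.05, 34 genes were higher (0.222%) and 14 lower (0.0913%). At an unadjusted p under 0.05 alone, 510 genes were higher (3.33%) and 227 lower (1.48%). Together these were 737 of 15329 genes, no more than the share of 0.05 that this threshold passes when no gene differs. A single gene past it is therefore not a detected change. The 3 mice of KO_RL lay entirely above those of KO_OL for 1059 genes (6.91%) and entirely below for 970 genes (6.33%). In what follows, rose and fell mean an unadjusted limma p under 0.05 for a single gene, and where a gene also passed after adjustment this is stated. The gene lists below and their members were chosen with earlier results of these data known. Their counts beside the share of all genes are therefore descriptions and not tests. The 34 to 14 split rested partly on 1 mouse: without KO_OL replicate 1 the counts were 22 higher and 50 lower. With only the 6 KO libraries in the fit, 0 genes passed after adjustment and 1097 had an unadjusted p under 0.05.

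**Figure D1:**
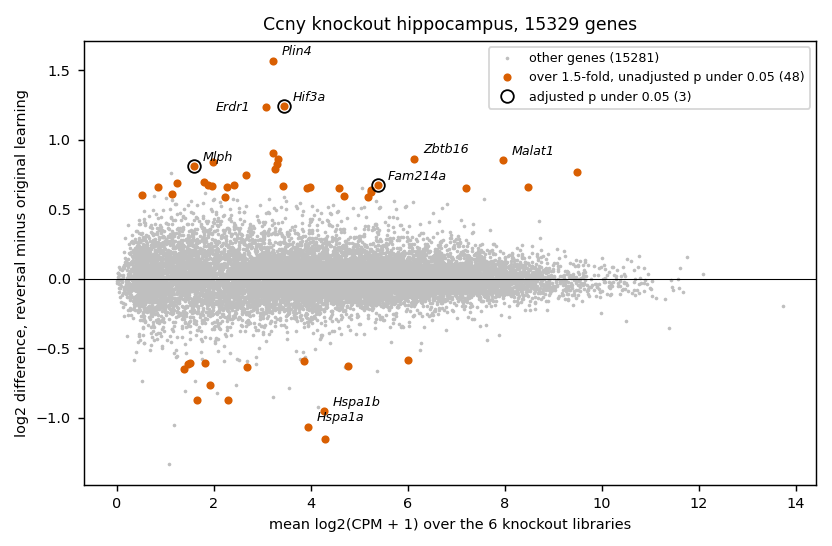
Each point is a gene, with its mean log2(CPM + 1) over the 6 knockout libraries on the x axis and the log2 difference of KO_RL minus KO_OL on the y axis. The 48 orange points are over 1.5-fold with an unadjusted p under 0.05, 34 above 0 and 14 below, and the 3 circled genes *Hif3a*, *Fam214a* and *Mlph* have an adjusted p under 0.05.

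The 3 genes past adjustment were *Hif3a*, *Fam214a* and *Mlph*. *Hif3a* (chr7:17031507-17062427, mm10) encodes HIF-3α, a hypoxia-inducible factor family member that is also a glucocorticoid target. It was at 4.63, 6.89 and 6.98 CPM in KO_OL and at 14.3, 17.2 and 15.9 CPM in KO_RL. The groups did not overlap, the highest KO_OL mouse being at less than the lowest KO_RL mouse, and untrained KO mice, at 8.40 ± 0.396 CPM (SD, n = 3), were above the KO_OL mice and below the KO_RL mice. The log2 difference was 1.24 ± 0.12 (SE, adjusted p = 0.000305 by limma), and it stayed between 1.08 and 1.33 when each of the 6 mice was left out in turn, with adjusted p between 0.000524 and 0.00467. In WT mice *Hif3a* went from 5.41 ± 0.143 CPM (SD, n = 3) to 9.58 ± 0.845 CPM, a log2 difference of 0.72. The KO difference exceeded the WT difference by 0.52 ± 0.17 (SE) on the log2 scale, which did not pass after adjustment (limma adjusted p = 0.582).

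*Fam214a* (chr9:74952884-75032468, mm10) was at 30.4, 33.5 and 33.3 CPM in KO_OL and at 44.8, 59.0 and 53.7 CPM in KO_RL. All KO_RL mice were above all KO_OL mice, with the highest value in the library that stood apart. The log2 difference was 0.67 ± 0.09 (SE, adjusted p = 0.0172 by limma), and it was 0.59 with an adjusted p of 0.166 without KO_RL replicate 2. The call was also lost without any one of the 3 KO_OL mice or KO_RL replicate 3 (adjusted p from 0.0864 to 0.142). Untrained KO mice were at 46.7 ± 3.17 CPM (SD, n = 3), near the KO_RL mice, though their libraries differed in GC dependence. *Mlph* (chr1:90915085-90951142, mm10) encodes melanophilin, a linker of Rab27a to myosin Va in organelle transport. It was low, at 1.47, 0.926 and 1.49 CPM in KO_OL and 3.37, 2.99 and 2.66 CPM in KO_RL, again without overlap. Its log2 difference was 0.81 ± 0.13 (SE, adjusted p = 0.0486 by limma), with an adjusted p of 0.101 to 0.303 when 1 mouse was left out, so no single omission kept this call. *Mlph* also rose in WT mice, by 0.62 on the log2 scale.

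Many glucocorticoid-induced genes rose. Of 20 genes, 10 rose and 2 fell, against 3.33% and 1.48% of all genes, and the median log2 difference was 0.23 against 0.00056 for all genes tested. *Zbtb16*, a zinc finger transcription factor, was at 53.2, 51.1 and 49.2 CPM in KO_OL and 80.3, 108 and 95.3 CPM in KO_RL. These groups were far apart relative to their spread, with a log2 difference of 0.86 ± 0.15 (SE, limma adjusted p = 0.0982). *Fkbp5*, a co-chaperone that lowers the affinity of the glucocorticoid receptor for its ligand, went from 92.2 ± 7.75 CPM to 134 ± 6.56 CPM (SD, n = 3 each), a log2 difference of 0.54. *Plin4*, a lipid droplet coat protein, was at 2.97, 5.62 and 5.02 CPM in KO_OL and 21.5, 14.3 and 10.9 CPM in KO_RL. It had the largest rise of the genes past the criteria of the study, 1.57 ± 0.36 (SE) on the log2 scale, with an adjusted p of 0.212 by limma and a wide spread among KO_RL mice. *Plin4* overlaps *Hdgfl2* on the other strand, and whether reads were counted by strand is not stated.

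The kinase gene *Map3k6* rose by 0.75, the cell cycle inhibitor *Cdkn1a* by 0.65, the sulfotransferase *Sult1a1* by 0.56 and the transglutaminase *Tgm2* by 0.47 on the log2 scale. *Tsc22d3*, which encodes the anti-inflammatory protein GILZ, and *Klf9*, a Krüppel-like factor, rose by 0.24 and 0.21. Not all classical targets moved this way. *Per1* fell from 119, 124 and 133 CPM to 98.2, 98.1 and 93.5 CPM, a log2 difference of -0.37. *Ddit4*, an inhibitor of mTORC1, also fell, by 0.22. *Sgk1*, a kinase gene often used as a corticosterone readout, was at 142, 204 and 184 CPM in KO_OL and 193, 133 and 114 CPM in KO_RL, so that the groups overlapped (log2 difference -0.29 ± 0.29, SE). The metallothioneins *Mt1* and *Mt2* had log2 differences of -0.0034 and 0.11, neither of which passed. The count of rises in the list was 8 or 9 when any 1 of the 6 mice was left out. In WT mice 8 genes of the list rose and 3 fell (against 9.96% and 6.39% of all genes), with a median of 0.067, and 4 of the 20 differed between genotypes at an unadjusted p under 0.05, against 7.98% of all genes. Without WT_OL replicate 2, 7 rose and 3 fell in WT mice (against 4.12% and 3.20%), with a median of 0.13. Of the 20, 3 then differed between genotypes, against 5.49%.

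Some cell markers were also higher. Summed astrocyte markers were 7406 to 7524 CPM in KO_OL and 7828 to 8084 CPM in KO_RL, with 2 of 12 rising against 3.33% of all genes. Summed endothelial markers were 419 to 475 and 467 to 513 CPM, which overlapped, also with 2 of 12 rising. Summed markers of vascular smooth muscle were 167 to 173 and 189 to 216 CPM, without overlap, and 0 of 12 passed. In bulk tissue, more cells of a type and more RNA per cell cannot be told apart, and the part of these cells in the rises was not tested. Other marker lists leaned lower. Of 12 CA2 and CA3 pyramidal markers 2 had a positive difference (median -0.16), and of 12 ependymal markers 0 (median -0.19). In both lists 0 passed. Further genes of the largest rises were *Thbd*, *Xdh* and *Erdr1*. *Thbd* encodes thrombomodulin, an anticoagulant receptor of endothelium, and was at 5.80, 5.96 and 5.83 CPM in KO_OL and 15.4, 10.5 and 10.2 CPM in KO_RL, a log2 difference of 0.90. *Xdh*, xanthine dehydrogenase of purine breakdown, rose by 0.82. *Erdr1* rose by 1.23, from 4.39, 5.87 and 3.53 to 8.77, 15.1 and 12.9 CPM, with limma adjusted p = 0.0982.

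**Figure D2:**
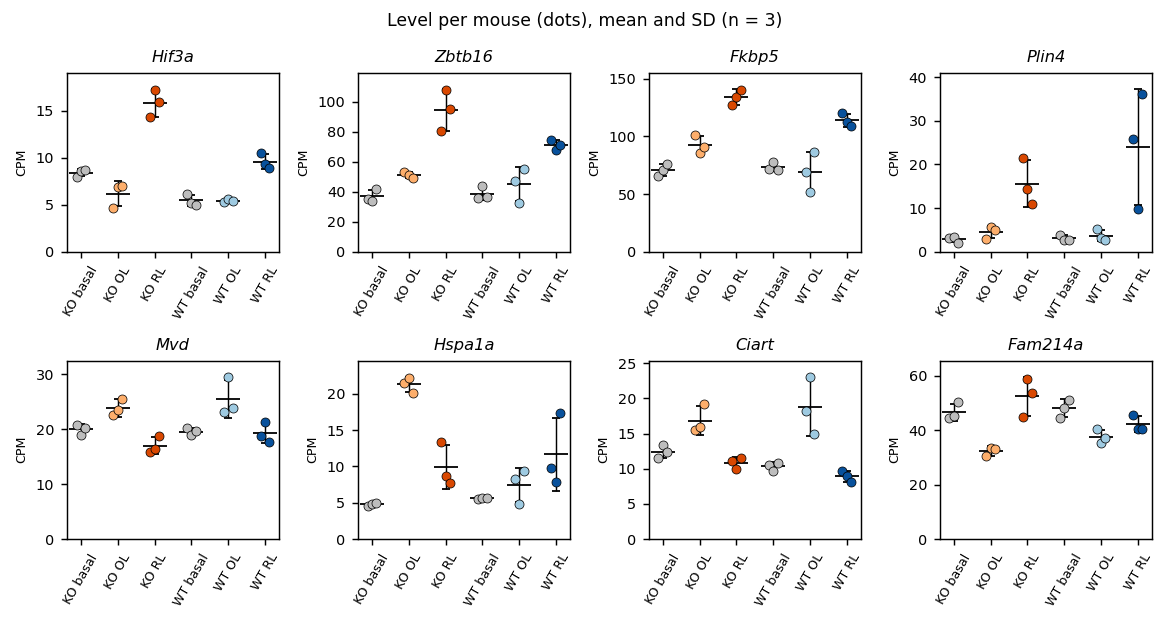
CPM of 8 genes in each mouse (dots) of the 6 groups on the y axis, with the mean and the SD of 3 mice (bars). *Hif3a*, *Fam214a*, *Zbtb16*, *Fkbp5* and *Plin4* are higher in KO RL than in KO OL mice, *Mvd*, *Hspa1a* and *Ciart* are lower, and *Hspa1a* is higher in KO OL than in any other group.

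Genes of cholesterol synthesis and uptake fell together. Of 24 genes, 15 fell and 0 rose, against 1.48% and 3.33% of all genes, and for 20 of the 24 all KO_RL mice were below all KO_OL mice, against 6.33%. The median log2 difference was -0.25. None of the 24 passed an adjusted p under 0.05 in this comparison. *Mvd*, the decarboxylase at the end of the mevalonate steps (chr8:122433601-122443422, mm10), was at 22.5, 23.4 and 25.6 CPM in KO_OL and 15.8, 16.4 and 18.8 CPM in KO_RL. All KO_RL mice were below all KO_OL mice, and the log2 difference was -0.47 ± 0.10 (SE, limma adjusted p = 0.172). Untrained KO mice were at 20.8, 18.9 and 20.3 CPM, between the groups.

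Along the pathway, the falls began at the first steps. *Hmgcs1*, HMG-CoA synthase, was at 290, 312 and 292 CPM in KO_OL and 239, 246 and 254 CPM in KO_RL (log2 difference -0.27). *Hmgcs1* was lower in every KO_RL mouse than in any KO_OL mouse, and untrained KO mice were at 324 ± 8.55 CPM (SD, n = 3), above both groups. Of the other mevalonate enzymes, *Mvk* fell by 0.29, while *Pmvk* had a log2 difference of -0.06 ± 0.09 (SE) that did not pass. The farnesyl and squalene steps *Fdps*, *Fdft1* and *Sqle* fell by 0.32, 0.23 and 0.27. Of the sterol steps, *Cyp51* and *Msmo1* fell by 0.26 each, *Nsdhl* by 0.23 and *Dhcr7* by 0.31. *Insig1*, which retains the SREBP escort in the endoplasmic reticulum and is itself an SREBP target, fell by 0.35, and *Stard4*, a cholesterol carrier, by 0.25. *Srebf2*, the gene of SREBP2, had a difference of -0.08 ± 0.06 (SE) that did not pass, and *Tm7sf2* was the 1 gene of the 24 with a positive difference, 0.04.

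The summed level of the 24 genes was 1605 to 1724 CPM in KO_OL, 1395 to 1438 CPM in KO_RL and 1524 to 1543 CPM in untrained KO mice. KO_RL had the lowest values of these 3 states and the groups did not overlap. Untrained libraries also differed in GC dependence and choroid plexus level, so their place in this order cannot be read as training alone. The count of falls ranged from 11 to 15 when 1 mouse was left out, 11 being without KO_OL replicate 2, and it was 13 without KO_RL replicate 2. Markers of oligodendrocytes, which make much of the cholesterol of the brain, had summed levels of 5396 to 7164 CPM in KO_OL and 5608 to 8241 CPM in KO_RL, and 0 of 14 passed. In WT mice 15 of the 24 genes also fell and 0 rose, with a median of -0.27, against 6.39% of all genes lower. *Mvd* in WT mice fell by 0.38, and the difference between genotypes was -0.08 with a standard error of 0.14. For the list, 2 of 24 genes, among them *Lss*, differed between genotypes at an unadjusted p under 0.05, which is near the 7.98% of all genes. Without WT_OL replicate 2, 13 of the 24 fell in WT mice and 0 differed between genotypes.

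**Figure D3:**
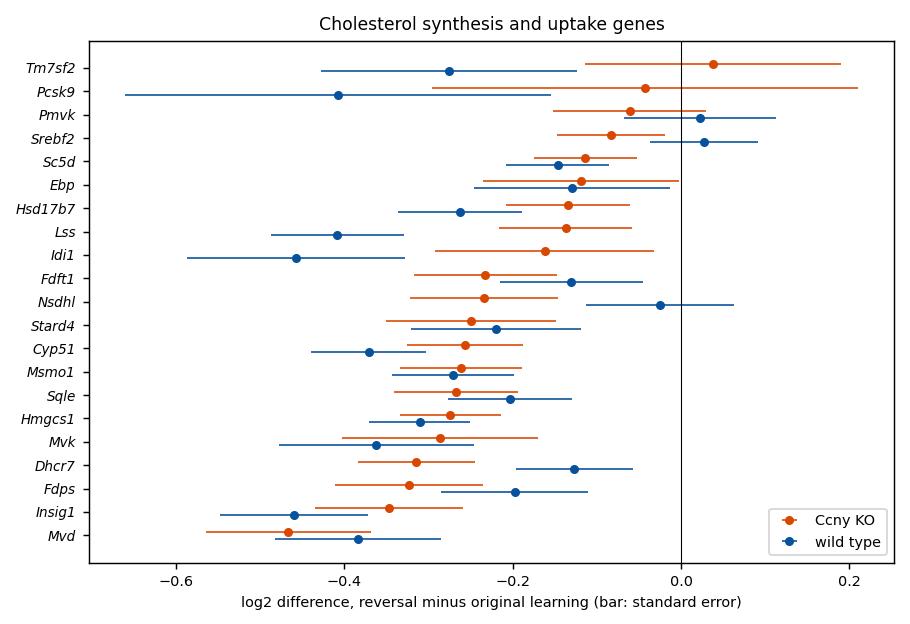
Log2 difference of reversal minus original learning on the x axis, with its standard error, for 21 of the 24 cholesterol synthesis and uptake genes in Ccny KO (orange) and WT (blue) mice. In KO mice 20 of the 21 points plotted lie below 0, and *Mvd* is at -0.47.

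Cytosolic heat shock and chaperone genes also fell in part in KO mice, and the median of the list had opposite signs in the genotypes. In KO mice 5 of 20 genes fell (against 1.48% of all genes) and 0 rose, 8 of 20 lay entirely lower in KO_RL (against 6.33%), and the median log2 difference was -0.15. *Hspa1a*, an inducible HSP70 gene (chr17:34969190-34972156, mm10), was at 21.5, 22.2 and 20.1 CPM in KO_OL and 13.3, 8.74 and 7.67 CPM in KO_RL. The log2 difference was -1.06 ± 0.24 (SE, limma adjusted p = 0.198). Its neighbour *Hspa1b*, at 28.0, 24.9 and 25.0 CPM and then 19.0, 11.7 and 9.57 CPM, had a difference of -0.96. The coding sequences of both genes are nearly identical, so reads may be split between them and they are not independent; *Hspa1a* also overlaps *Gm20481* on the other strand. The KO_OL mice were the ones that stood out. Untrained KO mice were at 4.79 ± 0.217 CPM of *Hspa1a* (SD, n = 3), and WT_OL mice at 7.46 ± 2.34 CPM.

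*Dnajb1*, an HSP40 co-chaperone, fell from 94.4, 91.2 and 83.9 CPM to 70.6, 64.5 and 59.4 CPM, a log2 difference of -0.47. *Fkbp4*, an HSP90 co-chaperone of steroid receptors, fell by 0.22 and *Stip1*, the HSP70-HSP90 organizer, by 0.18. The abundant chaperones *Hsp90aa1*, *Hsp90ab1* and *Hspa8* had differences of -0.11, -0.14 and -0.09 that did not pass. In WT mice the list moved the other way, with 15 of 20 rising, 0 falling and a median of 0.31, against 9.96% of all genes higher. The difference between genotypes passed an unadjusted p under 0.05 in 14 of 20 genes, against 7.98% of all genes, and in each case the KO value was the lower. For *Hspa1a* it was -1.62 ± 0.34 (SE) and for *Hsph1*, an HSP110 exchange factor, -0.72 ± 0.16 (SE). None passed after adjustment over all genes, where the smallest adjusted p was 0.457. The 14 became 12 to 16 when 1 of the 12 trained mice was left out and 11 without KO_OL replicate 1 and KO_RL replicate 2 together. Without WT_OL replicate 2, the 15 rises in WT mice became 9 and the 14 became 13. The 5 falls in KO became 3 without KO_RL replicate 2.

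No chaperone gene of the endoplasmic reticulum or gene of the unfolded protein response passed in KO mice. Of 24 genes 0 rose and 0 fell, none separated the groups, and the median was 0.00017, with values from -0.19 to 0.18. In WT mice 14 of these 24 rose (against 9.96% of all genes), with a median of 0.24, and 11 of 24 differed between genotypes at an unadjusted p under 0.05 (against 7.98%). Without WT_OL replicate 2 these counts were 12 and 8. *Hsp90b1*, the HSP90 of the endoplasmic reticulum, had log2 differences of 0.08 in KO and 0.55 in WT mice.

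**Figure D4:**
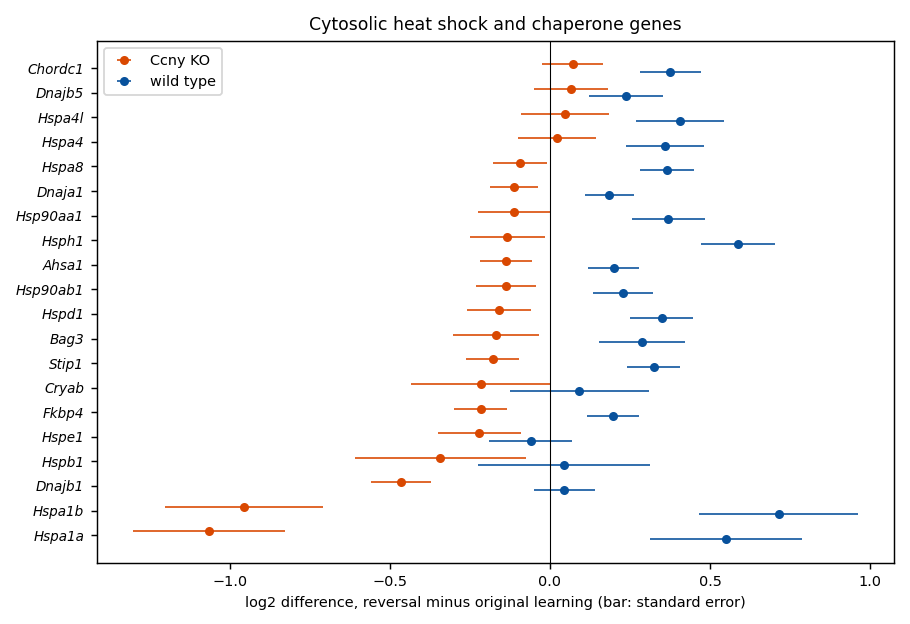
Log2 difference of reversal minus original learning on the x axis, with its standard error, for the 20 cytosolic heat shock and chaperone genes in Ccny KO (orange) and WT (blue) mice. The KO points run from -1.06 (*Hspa1a*) to 0.07 and lie to the left of the WT point for every gene.

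Start-site sequences of genes of these groups were searched for the core letters of the factors that are known to bind such promoters. The windows, from RefSeq (GRCm38.p6), ran from 250 bases before to 50 bases after the annotated start of 27025 genes, and both strands were read. The sterol element core TCACNCCAC was present in 1.22% of all windows and in 1 of the 16 cholesterol genes that had a window. The heat shock core TTCNNGAA was present in 8.40% of all windows and in 3 of 16 heat shock genes, and the glucocorticoid core ACANNNTGT in 6.90% and in 3 of 18 genes. The E-box CACGTG, bound by CLOCK and BMAL1, was present in 7.24% and in 5 of 17 clock genes. Of the 3 heat shock genes with the core, *Hsph1*, *Hspe1* and *Chordc1*, none fell in KO mice. A window of each group is shown, with every match in capitals, and a match is a stretch of letters and not a proven site.

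*Hmgcs1* (chr13:119690101-119690400, plus strand), shown because it fell and holds the sterol core, 137 bases before the start:
Hmgcs1: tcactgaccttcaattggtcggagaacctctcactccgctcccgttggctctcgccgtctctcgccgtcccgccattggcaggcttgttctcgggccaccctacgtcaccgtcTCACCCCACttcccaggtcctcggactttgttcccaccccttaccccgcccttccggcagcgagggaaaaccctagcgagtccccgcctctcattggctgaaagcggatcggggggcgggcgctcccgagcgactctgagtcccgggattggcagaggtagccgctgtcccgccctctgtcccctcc

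*Hsph1* (chr5:149636287-149636586, minus strand), shown for its difference between genotypes, holds 2 heat shock cores, 33 bases before and 36 bases after the start:
Hsph1: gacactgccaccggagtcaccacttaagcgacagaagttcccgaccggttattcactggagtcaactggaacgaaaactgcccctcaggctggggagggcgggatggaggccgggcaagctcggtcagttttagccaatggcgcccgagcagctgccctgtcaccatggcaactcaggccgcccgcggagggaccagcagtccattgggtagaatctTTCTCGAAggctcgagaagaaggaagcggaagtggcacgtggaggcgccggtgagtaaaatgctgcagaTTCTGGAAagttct

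*Map3k6* (chr4:133240568-133240867, plus strand), which rose from 3.19, 4.38 and 4.21 to 8.10, 6.14 and 7.55 CPM, holds a glucocorticoid core 179 bases before the start:
Map3k6: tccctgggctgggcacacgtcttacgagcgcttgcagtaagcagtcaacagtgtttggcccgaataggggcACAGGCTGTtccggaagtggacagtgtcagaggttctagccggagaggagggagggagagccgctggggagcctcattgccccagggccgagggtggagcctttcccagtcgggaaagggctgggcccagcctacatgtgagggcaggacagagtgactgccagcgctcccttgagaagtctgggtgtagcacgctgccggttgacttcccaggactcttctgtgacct

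*Ciart* (chr3:95882179-95882478, minus strand), the clock gene with the largest fall, holds 3 E-boxes, 116, 58 and 44 bases before the start:
Ciart: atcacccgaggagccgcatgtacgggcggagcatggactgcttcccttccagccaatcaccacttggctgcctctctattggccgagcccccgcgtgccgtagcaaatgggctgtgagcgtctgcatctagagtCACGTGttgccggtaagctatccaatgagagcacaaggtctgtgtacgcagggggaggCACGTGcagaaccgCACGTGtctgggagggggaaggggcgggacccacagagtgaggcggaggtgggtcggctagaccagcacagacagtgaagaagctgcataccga

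Among 19 circadian clock genes, 5 fell and 1 rose, against 1.48% and 3.33% of all genes, and the median was -0.06. *Ciart*, a repressor of CLOCK and BMAL1, was at 15.5, 15.9 and 19.2 CPM in KO_OL and 11.0, 9.93 and 11.5 CPM in KO_RL. The groups did not overlap (log2 difference -0.59 ± 0.13, SE, limma adjusted p = 0.198). *Dbp*, a clock output factor, fell by 0.51, *Per1* by 0.37, *Rorb* by 0.37 and *Nr1d1*, which encodes REV-ERBα, by 0.26. *Rorb* was also listed as a marker of cortical neurons, whose summed markers overlapped, at 475 to 533 CPM in KO_OL and 492 to 540 CPM in KO_RL. *Npas2*, a partner of BMAL1, rose by 0.25, and *Arntl*, the gene of BMAL1, had a difference of 0.17 that did not pass. *Ciart*, *Dbp*, *Per1* and *Nr1d1* also fell in WT mice, by 0.97, 0.66, 0.55 and 0.23. The time of day at which each mouse was sampled is not in the labels, so sampling time and training state cannot be told apart here.

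Some immediate early genes fell in KO mice. Of 39 genes, 5 fell and 2 rose, against 1.48% and 3.33% of all genes, with a median of -0.07. In WT mice 20 fell and 4 rose, against 6.39% and 9.96%, with a median of -0.31. Without WT_OL replicate 2, 17 fell and 2 rose in WT mice, against 3.20% and 4.12%, with a median of -0.30. *Egr2* was at 7.24, 5.37 and 5.08 CPM in KO_OL and 3.82, 2.63 and 4.50 CPM in KO_RL, and fell by 0.58. *Junb* fell by 0.35 and *Atf3* by 0.54. *Inhba*, the activin subunit, and *Homer1*, a postsynaptic scaffold with an activity-induced short form, rose by 0.34 and 0.30. *Arc* was at 317, 221 and 170 CPM in KO_OL and 171, 162 and 172 CPM in KO_RL. Its groups overlapped, with 1 KO_OL mouse at 170 CPM (log2 difference -0.44 ± 0.26, SE). *Fos* had a difference of -0.43 ± 0.22 (SE), *Nr4a1* of -0.34, *Egr1* of -0.13, *Npas4* of 0.26 and *Bdnf* of -0.03, and none of these or *Arc* passed. KO_OL replicate 1 had the highest *Arc*, *Fos* and *Nr4a1* of the 6 mice. The 5 falls became 1 without KO_RL replicate 2, 3 without KO_OL replicate 1 and 9 without KO_OL replicate 3. Of the 39 genes, 8 differed between genotypes at an unadjusted p under 0.05, against 7.98% of all genes, and 5 without WT_OL replicate 2, against 5.49%. *Apold1*, an endothelial gene induced by activity, fell by 0.63, from 6.35, 6.21 and 8.97 to 4.37, 4.37 and 3.90 CPM.

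Several nuclear noncoding RNAs rose, and the count rested on 2 libraries. Of 10 genes 6 rose, against 3.33% of all genes, all 10 differences were positive, and the median was 0.49. In WT mice 1 of the 10 fell and 0 rose, against 6.39% and 9.96% of all genes. The WT median was -0.32, and -0.18 without WT_OL replicate 2. Of the 10, 7 differed between genotypes at an unadjusted p under 0.05, against 7.98%, and 5 without WT_OL replicate 2, against 5.49%. This genotype count was not taken without KO_RL replicate 2. *Malat1* was at 139, 205 and 220 CPM in KO_OL and 266, 433 and 324 CPM in KO_RL (log2 difference 0.85). *Meg3* was at 385, 607 and 702 CPM and then 666, 1602 and 759 CPM, so that 1 library, KO_RL replicate 2, was far above the rest and the groups overlapped. Without that library 2 of the 10 rose and the median was 0.28. Without KO_OL replicate 1 these values were 2 and 0.37, and without both 0 and 0.13. Untrained KO mice had a summed level of 3046 to 4127 CPM, as against 1374 to 2051 CPM in KO_OL and 2019 to 3787 CPM in KO_RL. *Kcnq1ot1*, the imprinted antisense RNA of *Kcnq1*, rose by 0.67, but it overlaps *Kcnq1*, and *Ftx*, a noncoding RNA of the X inactivation centre, rose by 0.79. Splicing factors moved with the same library, with 4 of 24 rising (*Srsf6*, *Srsf5*, *Pnisr* and *Ddx17*), against 3.33% of all genes, and a median of 0.10. Without KO_RL replicate 2, 1 rose and the median was 0.04. *Srsf6* was at 66.8, 71.5 and 72.2 CPM in KO_OL and 80.9, 98.1 and 87.4 CPM in KO_RL, a log2 difference of 0.33. The part of RNA composition of these libraries in the rises was not tested.

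Genes of the actin pathway, through which the study links cyclin Y to spines, showed few RNA differences between KO_RL and KO_OL. The study's evidence on this step includes immunoblots of phosphorylated cofilin and LIMK1, and RNA levels do not measure phosphorylation. Of 5 actin isoforms 0 passed, and *Actb* was at 1316, 1099.9 and 1203 CPM in KO_OL and 1132, 1029.7 and 1168 CPM in KO_RL. Of 20 small GTPases of actin control and p21-activated kinases 0 passed. *Rac3*, a neuronal Rac GTPase, was at 17.5, 19.9 and 18.5 CPM and then 15.6, 17.1 and 15.8 CPM, without overlap but with a log2 difference of -0.20 ± 0.13 (SE) that did not pass. *Pak6* had a difference of -0.08 and *Acta1* of -0.10, both with overlapping groups. Of 13 genes of cofilin, LIM kinases and slingshot phosphatases, 1 rose, against 3.33% of all genes. This was *Ssh3*, a slingshot phosphatase that activates cofilin, at 16.2, 20.9 and 24.5 CPM in KO_OL and 22.6, 36.2 and 24.7 CPM in KO_RL, a log2 difference of 0.41 ± 0.19 (SE, limma adjusted p = 1). Its groups overlapped and its highest value was in KO_RL replicate 2. *Limk1*, the kinase that inactivates cofilin, was at 42.7, 42.2 and 42.2 CPM and then 41.5, 47.3 and 43.6 CPM, a difference of 0.06 ± 0.09 (SE). Of 24 genes of the WAVE complex, WASP proteins and Arp2/3 subunits, 1 rose, near the share of all genes. This was *Wasf2*, by 0.24 ± 0.11 (SE), and *Wasf3* had a difference of 0.04.

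No synaptic receptor gene of the lists passed. Of 16 AMPA receptor subunits and auxiliary proteins, 12 NMDA receptor and CaMKII genes, 17 phosphatase genes of long-term depression, 14 GABA-A receptor subunits and 12 genes of cyclin Y and its kinase partners, 0 passed an unadjusted p under 0.05, and the list medians lay between 0.0040 and 0.03. *Gria1* was at 1335, 1096 and 1197 CPM in KO_OL and 1063, 1219.5 and 1207 CPM in KO_RL, with overlapping groups. Of 20 postsynaptic density scaffolds 2 rose, against 3.33% of all genes. These were *Homer1* and *Shank2*, the latter by 0.20. A p that misses the threshold with 3 mice a group does not show that a gene was equal, and the standard error of *Limk1*, for example, leaves room for small changes.

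**Figure D5:**
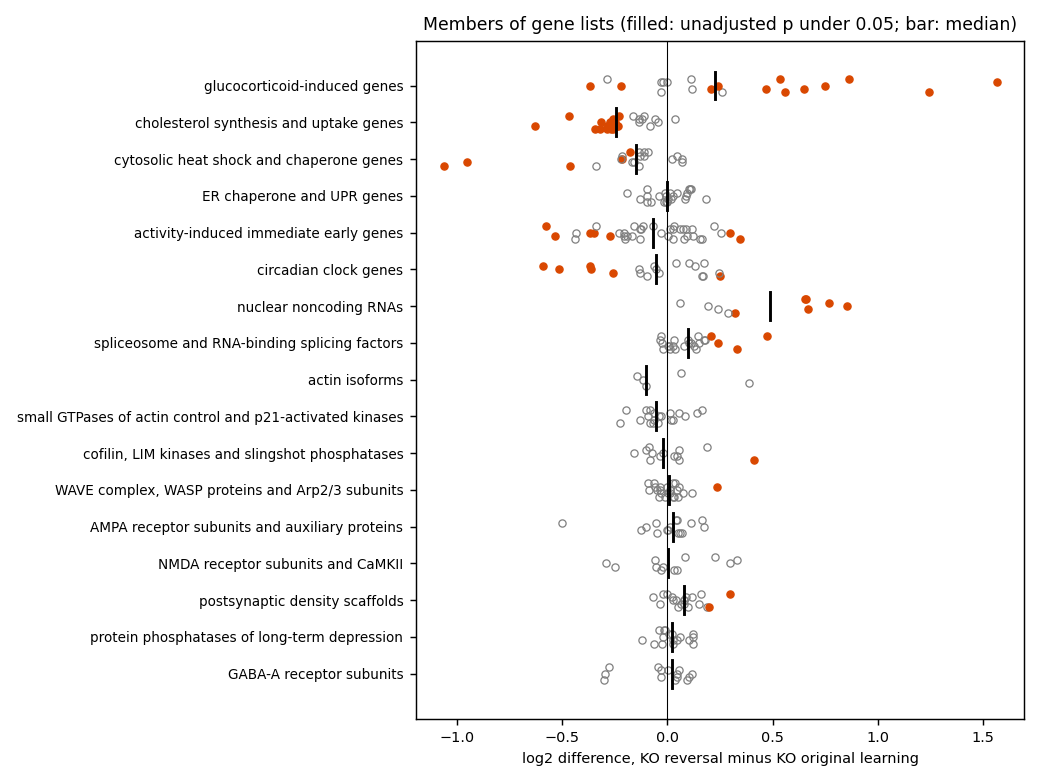
Each point is 1 gene of a list, with the log2 difference of KO_RL minus KO_OL on the x axis; filled points have an unadjusted p under 0.05 and vertical bars are list medians. The median is -0.25 for cholesterol genes and 0.23 for glucocorticoid-induced genes, which reach 1.57. Medians lie between 0.0040 and 0.03 for the receptor lists and between -0.10 and 0.0069 for the actin lists, with members on both sides of 0.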

How the data were processed

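Hippocampal poly-A RNA of 18 mice was sequenced, and the 18 libraries were grouped by genotype and training as given in their labels. The authors aligned reads to mm10 with STAR 2.5.1, counted them on genes with STAR, and normalized counts with the TMM method of edgeR 3.12.1 in R 3.3.0. The deposited values are log2 values. The study's methods describe CPM with a floor of 1, but 2 to the power of each log2 value minus 1 was a whole multiple of 1 step per library (100% of values within 0.05 read), so the deposited table holds log2(CPM + 1), and the tests planned for log2 values were kept. Whether counting used strand is not stated.

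The log2 values were fitted with limma 3.58.1 in R 4.3.3 (lmFit over all 18 libraries with 1 mean per group, eBayes with trend, 12 residual degrees of freedom), and KO_RL minus KO_OL, WT_RL minus WT_OL and the difference of both were tested two-sided, with Benjamini-Hochberg adjustment over 15329 genes. All genes were kept, and each had at least 21 reads in its deepest library. Fold changes are on the log2(CPM + 1) scale, which understates the change of low genes. CPM were computed back from the log2 values. The labels number 3 samples per group and the study gives 3 mice per group, so libraries were treated as separate mice. Within a group, pairs of the 6 KO libraries differed by 9.24 to 39.4 in chi-square per gene, well above counting noise. Exact permutation of 3 against 3 mice cannot give a p under 0.1 and was not used. The script was tested on simulated data with 200 changed genes. GENCODE and RefSeq tables gave positions, and Python 3.11.15 with matplotlib 3.10.9 the figures.

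The gene lists and the members of each were chosen with earlier results of these data known, and lists are described by counts and medians without a test. Named genes are those at an adjusted p under 0.05, the largest rises and falls among genes past the study's criteria with mice not overlapping and a mean log2 value of at least 2, the 5 smallest p of the comparison and of the difference between genotypes, up to 4 members of each list with an unadjusted p under 0.05, *Ccny*, actin genes named by the study and well-known immediate early genes. Other members were named after their values were seen, to fill out a list. Alternatives were other added values on the log2 scale, a filter on low values, fits of the compared libraries only, other normalizations, library weights, voom on recovered reads, a GC correction, a block of replicate numbers and leaving out each library. Leaving out KO_OL replicate 1 and KO_RL replicate 2 together, WT_OL replicate 2 for the list counts in WT mice, and all list counts under alternatives, were chosen after seeing the data. Some genes are counted in their lists but not reported here by name.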

Additional observations from a re-analysis of the deposited data

Results flagged for a closer look

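Among the named genes, 5 moved in opposite directions in KO and WT mice, with all mice of a group on one side, and passed an unadjusted p under 0.05 for the difference between genotypes. None passed after adjustment over all genes. Named genes include the 5 with the smallest p for this difference, so for those the pass was fixed in advance. How many of all genes meet the same rule was not counted. *Hspa1b* fell by 0.96 in KO and rose by 0.71 in WT mice, a difference of -1.67 (limma adjusted p = 0.457). *Fmod*, which encodes the matrix proteoglycan fibromodulin and is a marker of fibroblasts of the meninges, rose by 0.86 in KO and fell by 0.93 in WT mice, a difference of 1.79 (limma adjusted p = 0.547), and the summed markers of those fibroblasts spanned 266 to 335 CPM in KO_OL and 250 to 396 CPM in KO_RL. The 12 markers of that list, *Fmod* included, had medians of the same signs, 0.34 in KO and -0.60 in WT mice. In KO mice 10 of 12 were positive and 1 rose, *Fmod* itself, against 3.33% of all genes. In WT mice 4 fell, against 6.39%, and 4 of 12 differed between genotypes, against 7.98%. Without WT_OL replicate 2, 3 fell and 4 differed, against 3.20% and 5.49%. The part of these markers in the difference of *Fmod* was not tested. *Hcar1*, the lactate receptor gene, had a difference of 1.05 (0.43 in KO and -0.62 in WT mice), at 0.648 to 1.01 CPM in KO_OL and 1.28 to 1.97 CPM in KO_RL. *Rgs5*, a gene of pericytes and vascular smooth muscle, had a difference of 0.74 (0.18 in KO, which did not pass, and -0.56 in WT mice). *Aox3*, an aldehyde oxidase gene, had a difference of 1.31 (0.44 in KO and -0.88 in WT mice).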

How the results depend on the processing

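The count of genes past the study's criteria in KO_RL against KO_OL, 48, became 84 with CPM floored at 1, 132 with log2(CPM + 0.25), 18 with log2(CPM + 4), 80 with library weights, 174 with voom, 170 with folds as ratios of mean CPM, 74 without KO_OL replicate 1 and KO_RL replicate 2 together, and 58 to 89 when 1 mouse was left out, 89 being without KO_RL replicate 1. The 3 genes past adjustment became 8 with the floor, 127 with library weights, 0 with the 6 compared libraries only, with or without moderation, 1 without both those mice, and 1 to 3 with 1 mouse left out. *Hif3a* passed in 18 of 20 alternatives, failing in the fits of 6 libraries only (adjusted p = 0.0771 and 0.689 by limma). For the difference between genotypes, 310 genes past the criteria (217 higher, 93 lower) became 468, 113 and 183 with log2(CPM + 0.25), log2(CPM + 4) and the compared libraries without moderation, 407 with weights, 483 with voom, and 206 to 673 with 1 mouse left out, 673 being without WT_OL replicate 3 and 206 without WT_OL replicate 2; quantile normalization gave 159 higher and 122 lower. At an adjusted p under 0.05 there were 0 (limma; 1224 unadjusted, and 0 by voom with 1210 unadjusted), 3 with the floor, 48 with weights and 0 to 21 with 1 mouse left out, 21 being without WT_RL replicate 1. The 181 of WT_RL against WT_OL (89 higher, 92 lower) became 373 and 74 with the lower and higher added value, 68 without moderation, 322 with weights, 438 with voom and 106 to 545 with 1 mouse left out, and median centring gave 68 higher and 119 lower. The cause of these shifts was not tested. In all 20 alternatives the list medians in KO mice kept their sign, at -0.28 to -0.21 for cholesterol genes, 0.14 to 0.28 for glucocorticoid-induced genes and -0.21 to -0.09 for heat shock genes. Nuclear noncoding RNAs were at 0.13 to 0.61. Other lists came close to 0 without both those mice: the range was -0.11 to -0.023 for immediate early, -0.073 to -0.0019 for clock and 0.012 to 0.15 for splicing genes. Library weights gave 12 falls of heat shock genes in place of 5. Weights were estimated gene by gene, a choice made after seeing the data, since the REML estimate of limma did not converge and gave a weight of 301 to WT_OL replicate 1, which still had the highest weight, 7.03.

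Same-numbered mice of KO_OL and KO_RL did not deviate together (r = -0.39, 0.05 and -0.03 over genes), so the numbers were not taken as pairs; the replicate block gave 45 genes past the criteria and 2 past adjustment. Of 56 named genes, 4 changed sign under some alternative. *Pak6* was at 0.014 with weights, and from -0.16 to 0.0051 with 1 mouse left out. *Acta1* was at 0.0027 with weights, 0.039 without both mice, and from -0.19 to 0.0046 with 1 mouse left out. *Egr1* was at 0.021 without both mice. *Bdnf* was at 0.044 with weights, 0.11 without both mice, and from -0.14 to 0.12 with 1 mouse left out, 0.0078 being without KO_RL replicate 1.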

Other observations

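Lists of basic cell machinery had small negative medians in KO mice, with members on both sides of 0. Of 80 nuclear-encoded subunits of oxidative phosphorylation, 16 were entirely lower in KO_RL than in KO_OL and 1 entirely higher, against 6.33% and 6.91% of all genes, with a median log2 difference of -0.09, while 1 fell and 0 rose. Of 80 cytosolic ribosomal protein genes, 7 were entirely lower, near the share of all genes, and 2 higher (median -0.07), of 76 mitochondrial ribosomal protein genes 9 and 0 (median -0.05), and of 38 proteasome subunits 6 and 1 (median -0.07), and 0 of these passed an unadjusted p under 0.05. The medians in WT mice were -0.12, -0.13, -0.07 and -0.07, so that the medians had the same sign in both genotypes.

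Markers of neurons outside the hippocampus were present in some libraries. Summed striatal markers ranged from 216 to 682 CPM in KO_OL and from 218 to 1036 CPM in KO_RL, and 0 of 13 passed an unadjusted p under 0.05 by limma. Of 12 astrocyte markers, *Gjb6* (connexin 30) rose by 0.52 and *Fgfr3* by 0.22, both chosen after their values were seen.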
